A study of Homo sapiens with 2 samples.

Results

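The cytoplasmic ribosomal protein genes were described here in single cells of a human enteric neural crest culture. Members were chosen by name alone, as every listed gene called RPL or RPS followed by a number, with or without a final A or X, together with RPLP0, RPLP1, RPLP2 and RPSA. This gave 77 genes of 33694, of which 46 encode proteins of the large subunit and 31 proteins of the small subunit. FAU, which encodes a small subunit protein as a fusion to a ubiquitin-like protein, does not match the rule and was counted with the other translation genes.

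All cells were derived from H9 human embryonic stem cells, an established line, and the labels name no genetic change. The day 10 library (D10, n = 1) held adherent cultures on Geltrex during enteric neural crest induction, after media with a TGFβ receptor inhibitor and a GSK3 inhibitor, with BMP4 in the first of them and retinoic acid in the last. The day 15 library (D15, n = 1) held free-floating enteric crestospheres, which form after the monolayer is detached and moved to ultra-low-attachment plates in a medium with FGF2 and the GSK3 inhibitor. Cells of 2 biological repeats were mixed in each library and carry no label of their repeat in the metadata, so stage, culture format, medium, library and depth cannot be told apart, there was no replicate check, and every interval covers counting error only.

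The D10 library held 9627 cells with a median of 6713 unique molecular identifiers (UMIs), and the D15 library held 6320 cells with a median of 11770.5. The libraries shared 102 cell barcodes. Classes are those of the deposited metadata: enteric neural crest cells (ENCCs) with numbered subclusters, neuro-epithelial progenitors (NEP), cranial placode (CP, CP1 and CP2), non-neural ectoderm (NNE) and mesenchyme (Mes). The crest marker SOX10 stood at 120 CPM (a gene's UMIs per 1000000 UMIs of the same cells) in D10 ENCCs and at 103 CPM in D15 ENCCs, and was at 29.9 CPM or less in every other named type. The placode clusters also carried neuron markers, though not every one. STMN2, a regulator of microtubules in neurons, stood at 1543 CPM in CP1 and 3304 CPM in CP2 against 14.3 CPM in D15 ENCCs. In D10 CP it stood at 274 CPM, against 0.68 CPM in D10 ENCCs. ELAVL4, another neuron marker, was low, at 4.39 CPM in D10 CP, 6.70 CPM in CP1 and 0 CPM in CP2. CP2 also held the progenitor marker PAX6 at 381 CPM, against 63.8 CPM in D10 CP. The progenitor marker WNT2B stood at 827 CPM in D10 NEP and 123 CPM in D15 NEP. Both NEP clusters carried the epithelial marker KRT19, at 266 and 168 CPM. NEP and placode clusters, whose marker levels differed between the libraries, were not compared between the stages by name.

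A ribosome is assembled in the nucleolus from ribosomal RNA and a single copy of most of these proteins, so cells make the proteins in balanced amounts. The mRNAs are among the most abundant of growing cells, and most of them begin with a run of pyrimidines, the 5′ terminal oligopyrimidine (TOP) tract, through which mTOR and LARP1 control their translation. Loss of a single copy of many of these genes causes Diamond-Blackfan anaemia, and loss of RPSA function causes congenital absence of the spleen.

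The TOP tract was looked for in the RefSeq promoters (GRCh38.p14) as a C followed by at least 4 C or T on the gene's own strand, with the C within 5 bases of the annotated start. Of the 77 members, 62 matched a promoter by symbol, and 50 of these (80.6%) held such a tract, against 21.1% of 35116 promoters and 24.7% of the 1673 promoters of other genes at 50 CPM or more in ENCCs. Of the other translation genes listed below, 10 of 12 matched (83.3%) held one. Tracts had a median length of 8 bases and a range of 5 to 19. The following windows of 30 bases run from 15 bases before the annotated start to 15 bases from it on. They show 4 members with a tract (in capitals) that lay at the extremes of abundance or of the stage comparison below, and 3 such members without one at the annotated start.
RPLP1 (chr15:69452803-69452832, plus strand): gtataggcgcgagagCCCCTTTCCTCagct
RPSA (chr3:39406705-39406734, plus strand): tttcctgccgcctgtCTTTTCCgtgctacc
RPS27 (chr1:153990747-153990776, plus strand): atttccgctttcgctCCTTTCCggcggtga
RPL38 (chr17:74203663-74203692, plus strand): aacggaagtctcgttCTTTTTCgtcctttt
RPL15 (chr3:23916530-23916559, plus strand): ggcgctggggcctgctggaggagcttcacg
RPS26 (chr12:56041903-56041932, plus strand): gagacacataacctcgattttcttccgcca
RPS29 (chr14:49598696-49598725, minus strand): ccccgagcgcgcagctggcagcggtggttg
The members with a tract included both RPSA, the member with the lowest D15 to D10 ratio, and RPS27 and RPL38, which were among the highest. A missing tract says only that these letters were not within 5 bases of this annotated start.

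All 77 members were abundant. Every member exceeded 50 CPM in every class of both libraries, and members made up 41 of the 50 most abundant genes at D10 and 45 at D15. In CPM over all cells, the median member stood at 5190 at D10 and 5175 at D15. A UMI here marks the 3′ end of a transcript once, so CPM were not divided by length. RPS2, a small subunit protein near the mRNA entry, was highest in both libraries, at 17712 CPM at D10 and 14108 CPM at D15. It was followed at D10 by RPL13A, the stalk protein RPLP1, RPL10, RPS3 and RPS19 (13632 to 10416 CPM), and at D15 by RPL41, RPS18, RPLP1, RPL13A and RPS19 (11762 to 9382 CPM). The lowest 6 at D10 were RPS26, RPL17, RPL28, RPS21, RPL36A and RPL38 (395 to 1103 CPM), and at D15 RPL17, RPS26, RPL28, RPL18, RPS21 and RPS10 (495 to 2190 CPM). The highest member thus exceeded the lowest 44.9-fold at D10 and 28.5-fold at D15. Members with processed pseudogenes may have lost reads to them: GENCODE lists 1132 pseudogenes for 76 of the 77 members, and the files have no row for any of them.

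**Figure D1:**
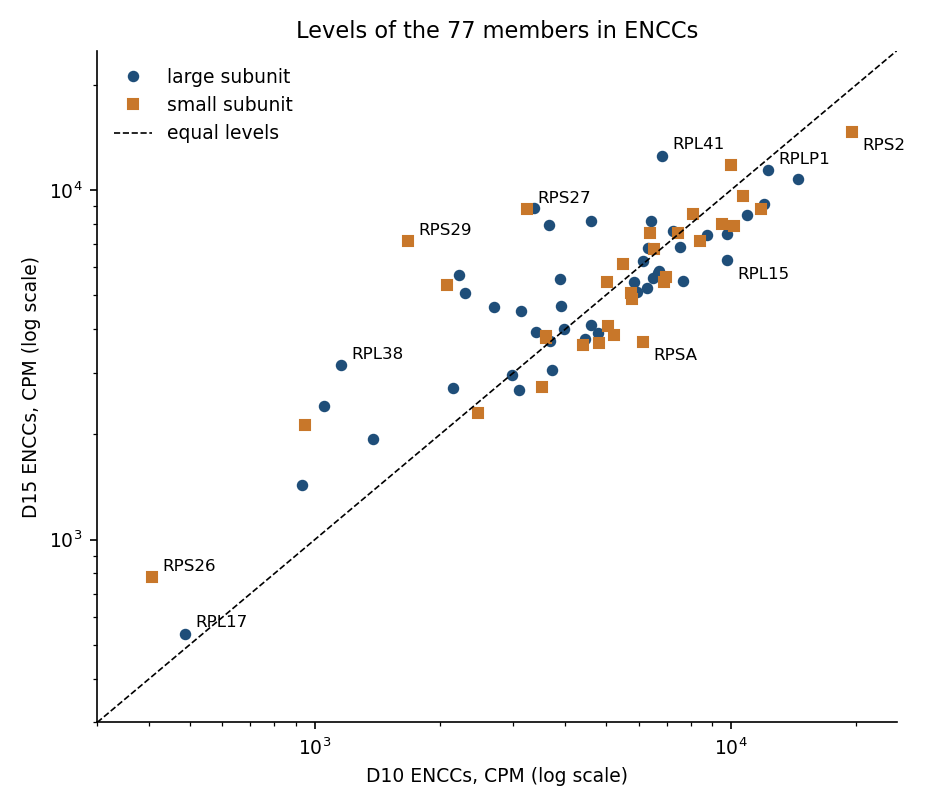
Level of each of the 77 members in ENCCs at D10 (x axis) and D15 (y axis), in CPM on log scales. Circles are large subunit genes, squares small subunit genes and the dashed line marks equal levels. RPS26 and RPL17 lie far below the others, and RPS29, RPS27 and RPL38 lie well above the line.

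ENCCs gave the largest part of their UMIs to the ribosomal proteins of any named type in either library. At D10 the share was 44.0% of the UMIs of 4921 ENCCs, against 41.0% in CP (324 cells), 37.1% in NEP (1811 cells) and 36.1% in NNE (239 cells). At D15 it was 44.4% in 4934 ENCCs, 39.1% in Mes (47 cells), 32.4% in NEP (104 cells), 31.3% in CP1 (208 cells) and 19.7% in CP2 (43 cells). The exact (Clopper-Pearson) 95% intervals were narrow, at 19.6% to 19.8% in CP2 and 43.98% to 44.01% in D10 ENCCs, and no neighbours in either order overlapped in counting error. The share per cell varied much more than that. The middle 90% of D10 NEP and NNE cells lay between 29.7% and 44.4% and between 26.3% and 44.6%, against 38.1% to 49.1% of ENCCs, so single cells of these types overlapped. In CP2 the same range, 14.6% to 25.2%, lay below that of the D15 ENCCs, 38.4% to 50.8%.

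**Figure D2:**
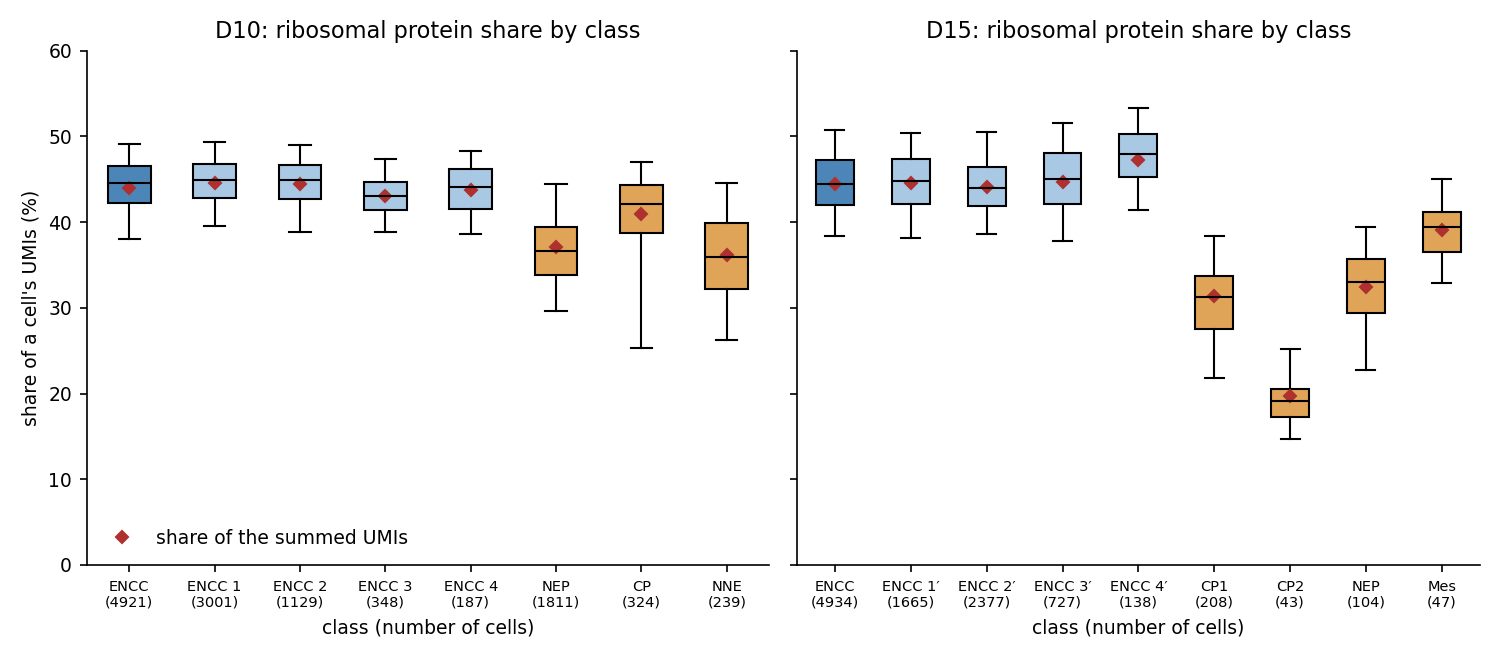
Share of a cell's UMIs in the 77 members by class (x axis, with the number of cells) at D10 and D15, in percent. Boxes span the 25th to 75th percentile of cells with the median as a line, whiskers the 5th to 95th percentile, and diamonds give the share of the summed UMIs. ENCCs and their subclusters sit near 44% at both stages, except ENCC 4′ at 47.3%, and CP2 sits lowest at 19.7%.

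In 6 of the 7 other types the median cell had fewer ribosomal protein UMIs than the median ENCC and more UMIs of other genes. The exception was D10 CP, with 3159.5 member UMIs and 4364 others. The median D15 ENCC had 4940 member UMIs and 6121.5 others, the median CP1 cell 3450 and 8103, and the median CP2 cell 1649 and 7514. At D10 the median ENCC had 3140 and 3881, the median NEP cell 2629 and 4607, and the median NNE cell 2594 and 4611. Among cells of 10000 to 12000 UMIs the shares at D15 were 44.7% in ENCCs, 30.2% in CP1 and 21.0% in CP2 (13 cells), and among D10 cells of 7000 to 9000 UMIs they were 44.4% in ENCCs, 36.6% in NEP and 36.4% in NNE. Median mitochondrial percent differed little between ENCCs and CP2 (2.71% and 2.81%). In G1 cells alone, all 7 other types again had a lower share than ENCCs.

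Within the placode clusters the share was lower in cells with neuron markers. Of the 324 D10 CP cells, the 229 without a STMN2 UMI gave 42.3% of their UMIs to the members, the 37 with 1 or 2 gave 40.8%, and the 58 with at least 3 gave 35.7%, with median depths of 7316, 8460 and 7361 UMIs. The same order held for ELAVL3, an RNA-binding protein of newborn neurons, with 41.9%, 40.0% and 34.6% in D10 CP and 34.7%, 32.3% and 29.8% in D15 CP1. In CP2 the 5 cells without an ELAVL3 UMI stood at 24.7%, the 12 with 1 or 2 at 18.9% and the 26 with at least 3 at 19.2%, so the latter groups were not in that order. In D15 ENCCs the 33 cells with at least 3 STMN2 UMIs stood at 44.0%, and the 4345 without at 44.5%. Median depth rose over the ELAVL3 groups, at 7232.5, 7718.5 and 8152.5 UMIs in D10 CP and 10180.5, 11178.5 and 12199 in CP1. Their median member UMIs did not fall in step (3168.5, 3132.5 and 3302, and 3256, 3479.5 and 3450). In the D10 CP groups by STMN2 these were 3173, 3344 and 2666.5. The median cell shares by ELAVL3 were 42.6%, 41.8% and 36.2% in D10 CP and 32.5%, 31.9% and 29.7% in CP1. The markers and the split by their UMIs were chosen after the class values were seen. What part neuronal cells or depth have in the lower shares was not tested.

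The decrease ran through nearly all members rather than a few. In log2 ratios of CPM + 1 against the ENCCs of the same library, 76 of 77 members were lower in CP1 (37.2% of all genes compared were lower), with a median of −0.52 against 0.21 over all genes. By at least 0.5 log2 units, 40 members were lower in CP1 (13.7% of all genes). In CP2 all 77 members were lower (32.2% of all genes), 76 of them by at least 0.5 (20.3%), with a median of −1.16 against 0.55. In D15 NEP, 76 were lower (33% of all genes), 32 by at least 0.5 (14.5%), with a median of −0.45, and in Mes 71 were lower (26.1%), 0 of them by 0.5 (5.9%), with a median of −0.18. At D10, 75 were lower in NEP (41.8% of all genes), with a median of −0.21, 75 in CP (46.6%), with −0.11, and 76 in NNE (37.8%), with −0.28. By at least 0.5, 4 members were lower in NEP (10.6% of all genes), 0 in CP (5.83%) and 3 in NNE (10.3%). The median over all genes was above 0 in each of these 7 comparisons (0.02 to 0.55), so the members' median minus that of all genes ran from −0.13 in D10 CP to −1.71 in CP2. A cluster was called from the same cells, and the authors had regressed the ribosomal percent out before clustering, so these values describe the clusters and test nothing.

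By role, the mRNAs for different parts of the ribosome were lower together. In CP2 the 3 stalk genes (RPLP0, RPLP1, RPLP2), which recruit elongation factors, lay between −1.40 and −1.19, and the 9 genes of the tunnel exit, where nascent chains leave and folding and targeting factors dock, lay between −1.50 and −0.89. RPL5 and RPL11, which with 5S RNA bind MDM2 when assembly fails, were at −1.60 and −1.01. The 46 large subunit genes had a median of −1.13 and the 31 small subunit genes one of −1.23. RPS3, a protein of the mRNA entry, was the lowest member in CP2, at 2318 CPM against 8847 CPM in ENCCs (log2 ratio −1.93, interval −2.03 to −1.84). It was also lowest in CP1 (−0.73) and D15 NEP (−0.91), and second lowest in D10 NEP (−0.53) after RPL23A, a docking site of the signal recognition particle (−0.60). RPS6, the S6 kinase substrate, was next in CP2, at 2291 CPM against 8008 CPM (−1.81).

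The non-member translation genes were lower as well, though only slightly in D10 NEP and CP. Of 17 listed elongation and initiation factors, chaperones of nascent chains and fusion genes, 16 could be compared. Their median was −1.08 in CP2, with 14 lower by at least 0.5 (20.3% of all genes), and −0.34 in CP1, with 4 (13.7%). It was −0.35 in D15 NEP, −0.23 in Mes, −0.21 in NNE, −0.08 in D10 NEP and −0.06 in D10 CP. In D10 NEP 11 were lower (41.8% of all genes) and in D10 CP 15 (46.6%), 0 of them by at least 0.5 (10.6% and 5.83%). EEF1A1, which brings aminoacyl-tRNA to the ribosome, stood at 5179 CPM in CP2 and 10910 CPM in ENCCs, and GNB2L1 (RACK1), a scaffold on the small subunit, at 1958 and 4197 CPM. EEF2, the translocase, went the other way (1537 and 1286 CPM, log2 ratio 0.26), and FAU was close to level (1580 and 1755 CPM, −0.15). Of the mitochondrial ribosomal protein genes, 41 of 53 compared were higher in CP2 (67.8% of all genes), with a median of 0.30 against 0.55 over all genes, and 50 of 54 in Mes (73.9%), with 0.47 against 0.27.

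Between the numbered ENCC subclusters the share changed little, apart from ENCC 4′ at D15, where it was higher. At D10 it was 44.6%, 44.4%, 43.1% and 43.7% in ENCC 1 to 4, and at D15 it was 44.5%, 44.2%, 44.7% and 47.3% in ENCC 1′ to 4′. The difference between lowest and highest was 1.49 percentage points at D10 and 3.14 at D15. The 256 D10 ENCCs outside the numbered subclusters stood apart at 37.7%, near NEP, and carried NEP markers, with WNT2B at 649 CPM against 49.6 CPM over all D10 ENCCs. In ENCC 4′ (138 cells) 72 of 77 members were higher than in the other numbered ENCCs (40.4% of all genes were higher), with a median of 0.10 against −0.15 over all genes. ENCC 4′ also had the lowest median mitochondrial percent of the D15 classes (1.93%), and 119 of its 138 cells were called G1. In the 8 subcluster comparisons together, members scattered around their own median with an SD of 0.02 to 0.09 log2 units.

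The share followed the called cell cycle phase within ENCCs. At D10 it was 44.9% in G1, 44.8% in S and 42.3% in G2M, and at D15 46.5%, 44.2% and 42.2%. G2M lay below G1 in each of the 8 numbered subclusters. The gap was smallest in D10 ENCC 3, at 43.7% and 42.1%, and largest in ENCC 4′, at 48.3% in 119 cells and 40.6% in 14 cells. In log2 ratios of G2M over G1, 76 of 77 members were lower at D10 (41.5% of all genes) and 76 at D15 (31.9%), with medians of −0.10 and −0.14 against 0.05 and 0.15 over all genes. In S over G1 at D15, 72 were lower (35.9% of all genes), with a median of −0.07. No member was 0.5 or more from the members' median in any of the 4 phase comparisons. Depth rose with phase, from a median of 9899.5 UMIs in G1 to 13050.5 in G2M at D15, and the median number of member UMIs per cell rose too, from 4627 to 5457. At like depth the order of G1 and G2M was unchanged, with 44.9% and 42.5% at D10 (7000 to 9000 UMIs) and 46.7% and 41.3% at D15 (10000 to 12000 UMIs). At D10, S minus G1 was −0.05 percentage points over all ENCCs, −0.52 as a median over cells, −1.23 in ENCC 1 and 0.08 at like depth. S lay below G1 in ENCC 1 (45.0% and 46.3%), ENCC 2 (45.2% and 45.5%) and ENCC 4 (43.6% and 45.0%), and the intervals of S and G1 overlapped in ENCC 3.

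**Figure D3:**
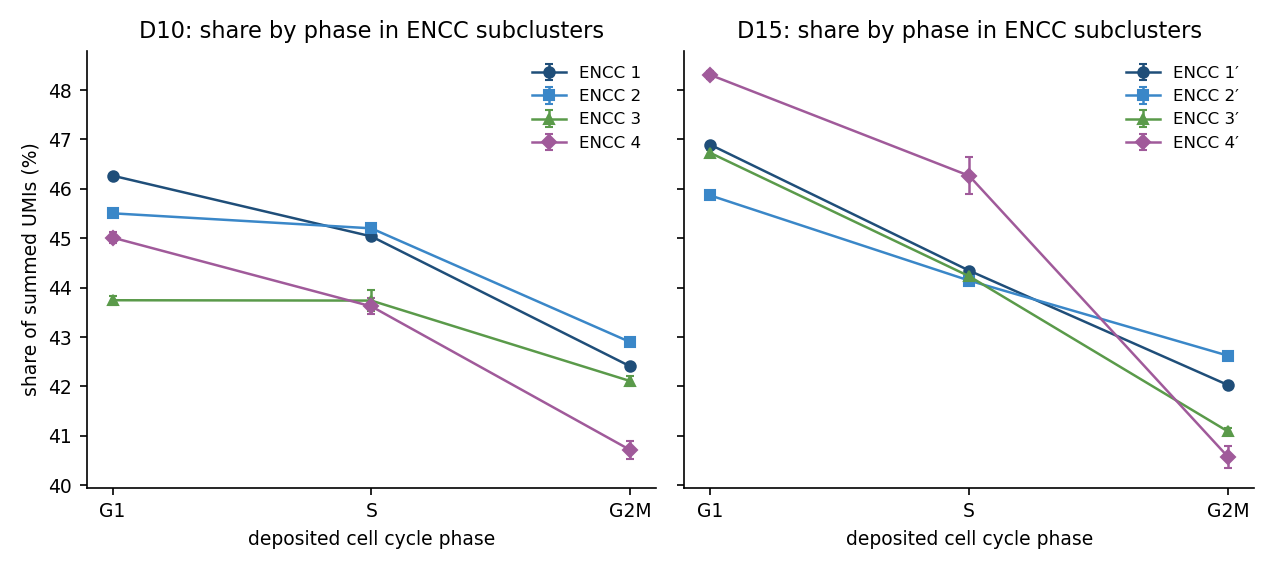
Share of summed UMIs in the 77 members (y axis, percent, axis cut at 40%) by deposited phase (x axis) in the 4 numbered ENCC subclusters of D10 and of D15. Bars are exact 95% intervals and cover counting error only. The share falls from G1 to G2M in all 8 subclusters, from 48.3% to 40.6% in ENCC 4′.

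A gene was counted as apart from the rest where its log2 ratio lay 0.5 or more from the members' median and the exact 95% interval of its ratio did not reach that median. In the 19 comparisons within a library (7 of types, 8 of subclusters and 4 of phases), 9 values met this, and RPS26 gave 5 of them. RPS26 is a small subunit protein at the mRNA exit, next to the Kozak context, encoded at chr12:56041351-56044697 (GRCh38, plus strand, ENSG00000197728.11). The other 4 were all in CP2, where RPS3 and RPS6 lay below the members' median by 0.77 and 0.65, and RPL28 and RPL38 above it by 0.60 and 0.56. Of all genes, by the same rule around their own median, 45.3% were apart in CP1, 65.1% in CP2, 47.8% in D15 NEP, 20.8% in Mes, 31.5% in D10 NEP, 16.2% in D10 CP and 34.6% in NNE. The share of all genes apart was 2.4%, 3%, 7.78% and 8.07% in ENCC 1 to 4, 4.7%, 5.53%, 5.94% and 40.6% in ENCC 1′ to 4′, 9.8% and 13.1% in S and G2M over G1 at D10, and 15.4% and 12.3% at D15.

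At D15, RPS26 in CPM shared little of the decrease of the other members. Its level was 782 CPM in D15 ENCCs (exact Poisson interval 775 to 790), 816 CPM in CP1 (781 to 853), 823 CPM in NEP (771 to 877), 667 CPM in CP2 (589 to 751) and 1107 CPM in Mes (1022 to 1198). RPS26 was thus level with ENCCs in CP1 and NEP and higher in Mes, while the median member was lower by 0.52, 0.45 and 0.18 log2 units. It lay above the members' median by 0.58 in CP1, 0.52 in NEP, 0.93 in CP2 and 0.68 in Mes. The medians over all genes were 0.21, 0.29, 0.55 and 0.27 there. The RPS26 log2 ratios in CP1 (0.06), NEP (0.07) and CP2 (−0.23) were below these, and that in Mes (0.50) was above. At D10 its departures were smaller, at 0.11 in NEP, 0.13 in CP and 0.27 in NNE, from 406 CPM in ENCCs (400 to 413). Its log2 ratio was −0.11 in D10 NEP, 0.02 in CP and −0.01 in NNE. The median member was at −0.21, −0.11 and −0.28 there, so in D10 NEP RPS26 shared part of the decrease.

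RPS26 was the member farthest from the rest in each of the other D15 types, but in no D10 type. Between subclusters it was the farthest too, except in ENCC 2 and ENCC 4 of D10. At D15 it stood at 880 CPM in ENCC 2′ (869 to 891), 718 CPM in ENCC 3′ (699 to 736), 690 CPM in ENCC 1′ and 594 CPM in ENCC 4′ (556 to 634). Of the 4 exact intervals, only those of ENCC 1′ and 3′ overlapped. Against the other numbered ENCCs its log2 ratio was 0.35 in ENCC 2′ and −0.41 in ENCC 4′, where the median member was at −0.02 and 0.10. At D10 it was highest in ENCC 3, at 515 CPM (485 to 545), against 398, 399 and 427 CPM in ENCC 1, 2 and 4. RPS26 had the largest departure of all members in 11 of the 19 comparisons, and RPL17, the next, in 2. In cells called G1 its departure was 0.49 in ENCC 2′ and −0.41 in ENCC 4′, and among cells of 10000 to 12000 UMIs it was 0.37 and −0.50. The genes of mitochondrial ribosomal proteins, which are not members, had medians of 0.21 in ENCC 2′, −0.42 in ENCC 4′ and 0.16 in D10 ENCC 3. The medians over all genes ran the same way there, at 0.11, −0.15 and 0.10. In ENCC 1′ and 3′ the mitochondrial set was at −0.17 and −0.03 (−0.06 and −0.07 over all genes). In D10 ENCC 1, 2 and 4 it was at −0.01, −0.09 and 0.12 (−0.002, −0.03 and 0.01). RPS26 is also among the 2 lowest members, with 30 pseudogenes in GENCODE, so what its row misses could not be seen.

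**Figure D4:**
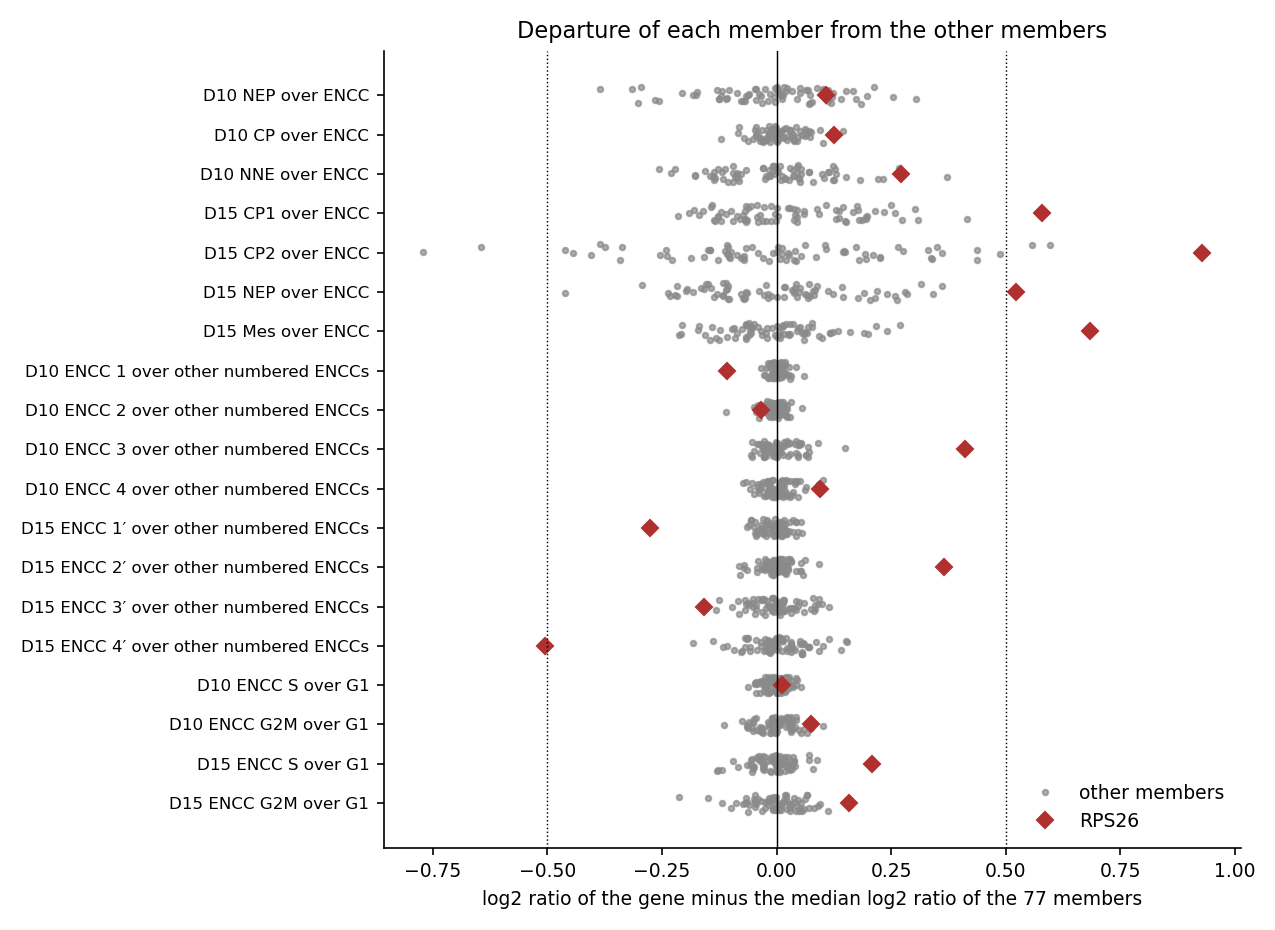
Departure of each member, its log2 ratio minus the median log2 ratio of the 77 members (x axis), in the 19 comparisons within a library (y axis). Grey points are 76 members, red diamonds RPS26, and dotted lines mark departures of 0.5. RPS26 lies outside the other members in most D15 comparisons, to the right in CP1, CP2, NEP, Mes and ENCC 2′ and to the left in ENCC 1′ and ENCC 4′.

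Between D15 and D10 ENCCs the summed share was nearly equal, but its makeup was not. The median log2 ratio of the members was −0.09 (−0.12 over all genes), a value whose sign changed with TMM scaling, which moved every ratio by 0.19 (to 0.09), and with the all-gene median set to 0, which moved them by 0.12 (to 0.02). Of the members, 37 were higher and 40 lower (41.2% and 58.8% of all genes), 17 higher by at least 0.5 (18.4%) and 2 lower by as much (21%). Around it, single members ranged from −0.74 to 2.09, with an SD of 0.60, and 20 of 77 were apart from the rest, 18 above and 2 below. By the same rule, 36.1% of all genes were apart from the all-gene median. RPS29, a zinc-binding protein of the small subunit head, went from 1674 to 7130 CPM (log2 ratio 2.09, interval 2.08 to 2.10). RPS27 went from 3227 to 8802 CPM (1.45), RPL38, known for patterning defects of mice that lack a copy, from 1159 to 3147 CPM (1.44), and RPL37A from 3352 to 8888 CPM (1.41). At the other end, RPSA, also known as the laminin receptor, went from 6156 to 3683 CPM (−0.74, interval −0.75 to −0.73), and RPL15 from 9775 to 6309 CPM (−0.63). RPL18 (0.49) and RPL35A (0.52) were the 2 nearest to the median among the 18 above it, and RPL22 and RPL21, at 0.34 each, lay just inside the limit.

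The members with the highest D15 to D10 ratios were mostly those with the shortest coding sequences. Over the 77 members, Spearman's correlation of the stage log2 ratio with coding length was −0.80, a description across genes that share 2 libraries. With the D10 level, which is itself part of the ratio, it was −0.64 over the members and −0.28 over 2123 other genes. The 9 members with at most 300 coding bases (RPL41, RPL39, RPS29, RPS28, RPL38, RPS21, RPS27, RPL37A and RPL37) lay between 0.88 and 2.09, and the 3 with more than 900 (RPL3, RPL4 and RPLP0) between −0.38 and −0.20. The coding sequences of RPL41, the shortest, and RPS29, the member with the highest ratio, show their size. They are given from GENCODE 29 with the start and stop codons in capitals, 25 and 56 codons before the stop.
RPL41: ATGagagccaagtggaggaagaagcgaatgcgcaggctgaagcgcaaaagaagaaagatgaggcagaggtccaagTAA
RPS29: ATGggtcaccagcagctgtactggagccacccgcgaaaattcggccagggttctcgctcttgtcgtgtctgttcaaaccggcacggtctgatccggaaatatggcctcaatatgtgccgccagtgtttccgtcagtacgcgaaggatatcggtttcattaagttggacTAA

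The short members separated the libraries and not the classes. They held 5.66% to 5.80% of the member UMIs in every named type and subcluster at D10, from NNE to the ENCCs outside the subclusters, and 13.7% to 14.9% in every one at D15, from ENCC 3′ to CP2. In the comparisons within a library, the correlation of the log2 ratio with coding length lay between −0.32 and 0.30. Without the 9 short members, the ENCC share was lower at D15 by 3.22 percentage points, in place of higher by 0.43. Among other genes a short coding sequence went with a slightly higher ratio. The 127 with at most 300 coding bases had a median of −0.04, against −0.12 over all genes. Of these, 34 were higher by 0.5 or more (18.4% of all genes) and 65 were below 0 (58.8% of all genes). With transcript length the members' correlation was −0.45. Of the 25 nuclear non-members with a transcript of at most 500 bases, 15 were higher at D15 by 0.5 or more and 5 below 0, with a median of 0.71, among them the actin-binding peptides TMSB4X (4695 and 7660 CPM, 0.71) and TMSB10 (1613 and 3003 CPM, 0.90), the respiratory chain subunit NDUFB1 (75.5 and 264 CPM, 1.79) and ROMO1 (46.9 and 158 CPM, 1.73). The short mitochondrial transcripts MT-ND3 and MT-ND4L were at 1.86 and 2.10. Over the 2022 other genes with a known length, of all lengths, the correlation with coding length was 0.05. The cut at 300 coding bases was chosen after the values were seen, and length, stage and library preparation cannot be told apart with 1 library a stage.

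**Figure D5:**
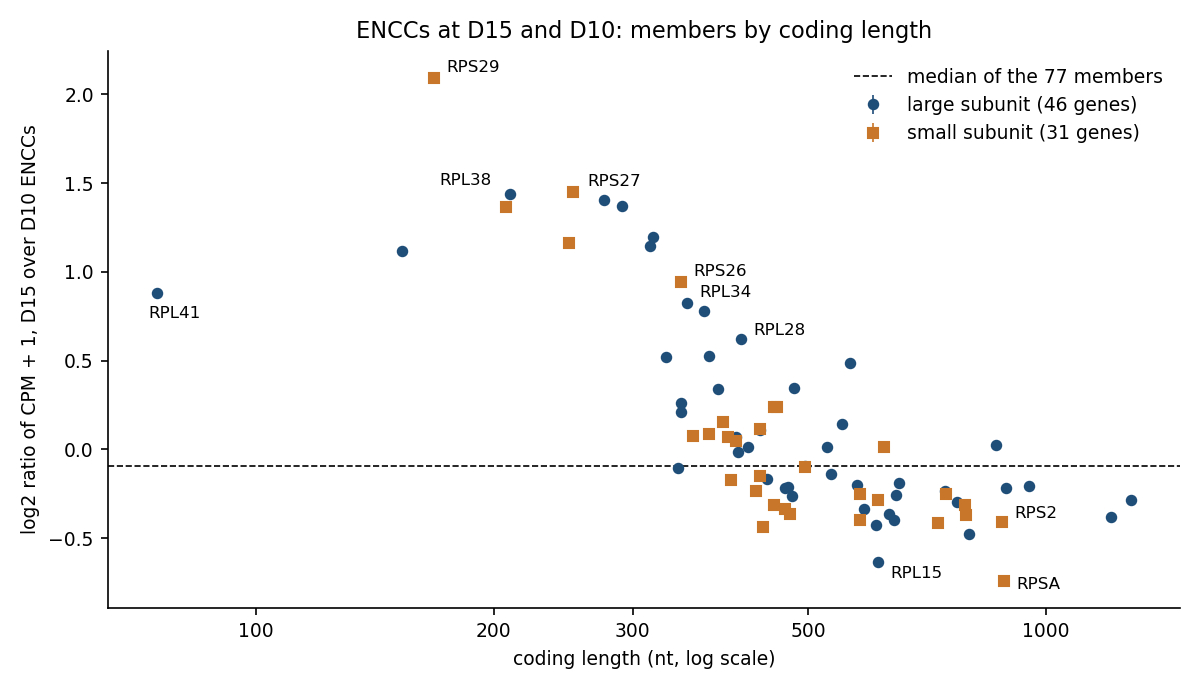
Log2 ratio of CPM + 1 in D15 over D10 ENCCs (y axis) of the 77 members against coding length in bases (x axis, log scale). Circles are large and squares small subunit genes, the dashed line is the members' median of −0.09, and exact 95% intervals are smaller than the symbols. All 9 members with at most 300 coding bases lie at 0.88 or above, and RPSA and RPL15 lie lowest.

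By role, the stage ratios followed no one part of the ribosome. The stalk genes were at −0.20 (RPLP0), −0.11 (RPLP1) and 0.26 (RPLP2), and RPL5 and RPL11 at −0.22 and −0.14. Among the 9 tunnel exit genes, the short RPL39 (1.12), RPL35 (0.78) and RPL31 (0.53) were apart from the rest, while RPL19 (−0.33), RPL4 (−0.28) and RPL23A (−0.22) were below 0. The X-linked RPL36A (1.19) and RPL39 were higher at D15, and the X-linked RPL10 and RPS4X stood at −0.40 and −0.31. Of the 18 genes on the Diamond-Blackfan list, 9 were apart from the rest (20 of all 77 members were), from RPL15 to RPS29, with RPS19, the gene first tied to the disease, at −0.15. RPS27A, made as a ubiquitin fusion, was at −0.34, and FAU, a fusion gene outside the rule, at 0.34. The 16 other translation genes compared had a median of −0.39, with 13 lower (58.8% of all genes), 3 of them by at least 0.5 (21%), including EEF2 (2293 and 1286 CPM, −0.83).

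The summed UMIs of the 46 large subunit genes exceeded those of the 31 small subunit genes in every class. As the gene numbers differ, this does not show a higher level per gene. The ratio was 1.30 in D10 ENCCs and 1.38 in D15 ENCCs, 1.27 to 1.30 in the other D10 types, 1.36 to 1.39 in D15 CP1, NEP and Mes, and 1.53 in CP2 (interval 1.51 to 1.56). ENCC subclusters lay between 1.29 and 1.30 at D10 and between 1.38 and 1.41 at D15. The CP2 value rests on 43 cells.

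Of the paralogues that can take the place of a member, RPL3L and RPL10L, the muscle and testis forms, had at most 3 UMIs in the ENCCs of either library, too few for a ratio. RPL22L1 was the paralogue that differed most between the stages, at 238 CPM in D10 ENCCs and 94.7 CPM in D15 ENCCs (log2 ratio −1.32, interval −1.38 to −1.28), while RPL22 went from 2144 to 2714 CPM (0.34). RPL22L1 was also lower in the other types of D10 (171 CPM in NEP, 159 in CP and 125 in NNE) and in CP1 (39.8 CPM) and CP2 (27.4 CPM) at D15, but not in D15 NEP (101 CPM) or Mes (159 CPM). RPS27L, a target of p53, stood at 289 CPM in D15 ENCCs, 629 CPM in CP1, 692 CPM in NEP and 162 CPM in CP2. RPL39L was at 66.5, 104 and 113 CPM in G1, S and G2M at D10 and at 55.5, 75.1 and 78.9 CPM at D15, the opposite order to the members. RPL36AL (443 and 368 CPM), RPL7L1 (104 and 71.7 CPM) and RPL26L1 (67.7 and 64.0 CPM) differed less between D10 and D15 ENCCs. The 3 readthrough rows that join RPL17, RPS10 and RPL36A to a neighbouring gene held at most 0.60 CPM in ENCCs.

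Over the 17 classes (the types other than ENCC, the numbered subclusters and the remaining ENCCs), the 5 non-members whose log2 CPM was most like that of the summed members were CDK4 (Pearson's r = 0.95), BTF3 (0.94), RSL1D1 (0.94), LDHB (0.94) and EIF3M (0.93), among 985 genes of at least 50 CPM in every class. The classes share 2 libraries, and CP1 and CP2 carry most of the spread, so these are descriptions. BTF3, a chaperone of nascent chains, and EIF3M, an initiation factor, belong to translation, RSL1D1 is a nucleolar protein, CDK4 drives entry into S phase, and LDHB interconverts lactate and pyruvate.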

How the data were processed

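Single-cell libraries (Chromium 3′ chemistry) were made from 2 samples, D10 and D15, each a pool of 2 biological repeats (total UMIs, 70488169 and 84976253). The authors deposited raw UMI counts per gene and cell. Per the study's methods these counts came from kallisto and bustools, while the GEO processing notes name Cell Ranger, Seurat 4.0.4 and GRCh38. The deposited percent columns give the mitochondrial and ribosomal share of each cell's UMIs as the authors computed them with Seurat. Sums over all RPS and RPL rows gave the deposited ribosomal percent in 9627 of 9627 and 6320 of 6320 cells (tolerance 1e-06 percentage points), and the 77 members fell short of it by at most 0.393 and 0.424 points. The authors' type, subtype and phase labels were used. Per the methods, depth, cell cycle scores and both percent columns were regressed out before clustering, and low-quality cells were marked by limits on genes, UMIs and mitochondrial percent. These 2332 D10 and 984 D15 cells were left out of the class values. Doublets were not called here.

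UMIs were summed per class, and CPM taken over the total of the same cells. Log2 ratios used CPM + 1 (pseudocount 1) and, for the background over all genes, genes of at least 50 CPM in either class. Shares have Clopper-Pearson, CPM exact Poisson and ratios exact conditional binomial intervals (95%), which cover counting error only. With 1 library per stage, cells are not replicates, and no p-value was computed. Members, gene lists and classes compared were chosen with earlier results of these data known. Named members are the 6 most and 6 least abundant of each library, those apart from the rest (beyond 8, the 4 highest and 4 lowest), and those with a listed role or paralogue. RPL18, RPL21, RPL22, RPL35A and the 9 short members were named after their values were seen. Positions, lengths and coding sequences are from GENCODE 29 (GRCh38) and start sites from RefSeq (GRCh38.p14). Python 3.11.15 with numpy 2.4.6, pandas 2.3.3, scipy 1.17.1 and matplotlib 3.10.9 was used, and R 4.3.3 with edgeR 4.0.16 for the TMM factors. The comparison code was tested on simulated data. Alternatives covered scaling, pseudocount, minimum level, the cells used and the members counted.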

Additional observations from a re-analysis of the deposited data

Results flagged for a closer look

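The cells that the authors marked as low quality, which entered no comparison, held groups with a higher ribosomal protein share than the ENCCs as a whole. The 983 D10 cells that fell under the study's lower limit on genes per cell, and past no other of its limits, gave 46.0% of their UMIs to the 77 members, with a median of 3092 UMIs per cell. ENCCs of D10 stood at 44.0%, the removed cells over the mitochondrial limit at 37.0% (1095 cells) and those with more than 3500 genes at 38.2% (318 cells). Kept D10 cells reached a like value, with 46.3% in the ENCC 1 cells called G1. The 35 D15 cells under the lower gene limit stood at 55.8%, with a median of 6483 UMIs, against 44.4% in ENCCs and 38.3% in the 929 removed with more than 3500 genes. These cells were chosen for few genes per cell, and what part that has in their share was not tested.

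In D15 CP1 the share was higher in G2M (36 cells) than in G1 (164 cells), by 1.14 percentage points, while in the D15 ENCCs G2M minus G1 was −4.28 points. The difference between the types was not tested, since each is part of 1 library.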

How the results depend on the processing

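No paired analysis was possible because each stage has 1 library. Under every alternative run, all 7 other types had a lower share than ENCCs, all 8 numbered subclusters a higher share than every other type, and all 8 a lower share in G2M than in G1. Over these alternatives the difference from ENCCs ranged from −26.8 to −21.0 percentage points in CP2 and from −3.42 to −2.53 in D10 CP. The cause of the changes below was not tested, except where fewer cells or members were counted.

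The gap between the highest and lowest D10 subcluster (1.49 points) was 1.95 as a median over cells, 1.77 without the 10% deepest cells, 1.15 without the 5 most abundant members and 2.52 in G1 cells. At D15 (3.14 points) the same settings gave 3.89, 3.39, 2.89 and 2.44, and totals without mitochondrial genes 2.79. G2M minus G1 at D10 (−2.63) was −3.28 as a median over cells, −2.73 without the deepest cells, −2.69 without mitochondrial genes, −2.38 without the 5 most abundant members, −3.86 in the largest subcluster and −2.42 at like depth, and at D15 (−4.28) it was −4.46, −4.71, −4.13, −3.80, −3.24 and −5.42, and −4.22 without members with a readthrough row. D10 S minus G1 (−0.05) changed sign at like depth (0.078), and was −0.26 without the deepest cells, −0.52 as a median over cells and −1.23 in the largest subcluster.

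The D15 minus D10 share of ENCCs (0.43 points) was −0.11 as a median over cells and −3.22 without the 9 short members, which reverse it, 0.33 without the deepest cells, 0.092 without mitochondrial genes, 1.32 without the 5 most abundant members and 0.30 without readthrough members, so its direction is not set. The stage median (−0.09) reversed to 0.093 with TMM and to 0.025 with the all-gene median at 0, and was −0.10 on totals without members and mitochondrial genes, −0.016 in all deposited cells, −0.010 in G1 and −0.16 without the short members. Members apart between the stages (20) were 11 without the short members and 11 at a fold limit of 1 log2 unit, which also took the 9 departures within libraries to 0. The large to small ratio was 1.31 at D10 and 1.39 at D15 without the 5 most abundant members, and 1.38 at D15 as a median over cells. Settings of like depth, numbered ENCCs only and without short members were chosen after seeing the data. An alternative for members under 50 CPM was not run, as no member was that low.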

Other observations

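The D15 ENCCs outside the numbered subclusters (27 cells) had a member share of 41.6% and carried STMN2 at 451 CPM. The genes with the lowest correlation with the summed members over the 17 classes were ATP6V0B (Pearson's r = −0.94), a subunit of the proton pump of lysosomes, and YWHAZ (−0.94), a 14-3-3 protein, given as descriptions over classes of both libraries.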
